A study of Homo sapiens with 4 samples.

Results

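The RNAs described here are the small nucleolar RNAs and the small Cajal body RNAs that the arrays could measure. Members are the genes with a symbol starting SNORA, SNORD or SCARNA, apart from the U3 copies SNORD3A, SNORD3C and SNORD3D, with a probe among the deposited normalized values. A member also had to be detected, by a detection p-value below 0.01, on 2 or more of the 4 arrays. There were 96 such genes among the 13786 features tested, out of 298 genes of these names with a probe. They comprise 41 of the H/ACA class (SNORA), 40 of the C/D class (SNORD) and 15 of the Cajal body class (SCARNA). The rule used no difference between groups.

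The arrays hold RNA of prostate cancer cells of a human line labelled DU154, in a wild type group of 2 arrays and a group named mH2A1.2_KO of 2 arrays. The mH2A1.2 form is a splice product of MACROH2A1, the gene of a histone variant with a large extra domain. The sources used here do not say how it was removed or whether the line is 1 clone. Nor do they tie the replicates to separate cultures, so a p-value here reflects the spread among these arrays, which may be technical.

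H/ACA RNAs guide the conversion of uridine to pseudouridine in ribosomal RNA, and C/D RNAs guide the methylation of its ribose. Cajal body RNAs carry the same boxes, direct these changes to the RNAs of the spliceosome and are held in the Cajal body of the nucleus. Most are cut out of introns of host genes and packed with a fixed set of core proteins that keep them from decay. Many host genes code for ribosomal proteins or translation factors, and others, the SNHG genes, give a spliced RNA with no known protein.

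An H/ACA RNA ends in a hairpin followed by the box ACA, which lies 3 bases before the end of the RNA. For 3 members RefSeq annotates a microRNA hairpin that overlaps the RNA and reaches its 3′ end, and these show the shared ending. The lines give the stretch that lies in both the microRNA hairpin and the member, 5′ to 3′, from RefSeq on build GRCh38.p14, with the ACA box in capitals.
SCARNA16: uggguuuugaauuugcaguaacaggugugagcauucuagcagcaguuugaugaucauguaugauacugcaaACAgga
SCARNA3: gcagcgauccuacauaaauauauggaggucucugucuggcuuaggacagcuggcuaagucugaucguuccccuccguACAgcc
SNORA84: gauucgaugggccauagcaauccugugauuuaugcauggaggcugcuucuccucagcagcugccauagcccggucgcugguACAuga
The SCARNA16 stretch is chr17:77089417-77089493 on the plus strand and holds 77 of the 187 bases of the gene. The SCARNA3 stretch is chr1:175968397-175968479 on the minus strand, with 83 of 144 bases. The SNORA84 stretch is chr9:92292461-92292547 on the minus strand, with 87 of 133 bases. In each, the ACA is followed by 3 bases. The 3 members differ in their array values: SCARNA16 was 0.42 higher in the mH2A1.2_KO arrays on the log2 scale, SCARNA3 0.04 higher and SNORA84 0.08 lower, and 0 of the 3 passed the test.

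The deposited tables disagree on 2 arrays, and this bears on every result. The raw signal table's header gives 1 array to wild type replicate 2 that follows the normalized column of mH2A1.2_KO replicate 1, and the reverse, with correlations over 7303 probes of at least 0.9976. Groups were taken from the normalized table, whose columns name the samples. The 6 highest members and several other results are also given with the grouping of the raw header and as the difference between the 2 alike-placed arrays. Those arrays carry the same label in both tables: the first wild type and the second mH2A1.2_KO replicate. Results printed without these values may also change with the grouping. MACROH2A1 measured 13.02 and 12.91 in the wild type pair and 11.97 and 11.83 in the mH2A1.2_KO pair, a difference of -1.07 ± 0.16 (SE, n = 2 per group; limma adjusted p = 0.246), which was -0.12 with the raw header's grouping. Of its other detected probes, 1 differed by -1.02 and 1 by 0.62 in the opposite direction. The probes were not matched to splice forms. Between 16727 and 18377 of 47230 probes were detected per array. The epithelial markers KRT8, KRT18, EPCAM and CDH1 were all detected and measured 1.68, 0.50, 0.43 and 0.65 higher in mH2A1.2_KO, with overlapping arrays in KRT18. With the raw header's grouping they differed by -0.26, 0.19, -0.04 and -0.42. Their part in the members' differences was not tested. By contrast, the prostate secretory genes KLK3 and KLK2 were detected on 0 arrays. Of the other cell types, 0 of 4 endothelial markers, 1 of 6 fibroblast markers (COL1A1), 1 osteoclast marker (CTSK) and the immune markers CD14 and CD68 passed the detection filter, and PTPRC and CD3E were detected on 0 arrays.

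A larger share of Cajal body genes than of the other classes passed detection. The class had 15 of 24 genes with a probe detected on at least 2 arrays (62.5%), the H/ACA class 41 of 101 (40.6%) and the C/D class 40 of 173 (23.1%). Of the 96 members, 73 were detected on all 4 arrays, 15 on 3 and 8 on 2. The C/D RNAs of the imprinted clusters, SNORD113 to SNORD116 and SNORD107 to SNORD109, had a probe for 35 genes. Of these, 34 were detected on 0 arrays and 1 on a single array, so 0 are members. Per the labels' protocols, total RNA was purified with a silica column kit and labelled as cRNA with the MessageAmp kit, which primes on poly(A). Mature small RNAs of these classes lack a poly(A) tail. Which molecule each probe reads, the mature RNA, its precursor or a spliced-out intron, is not stated in those sources. In such bulk samples, fewer cells with an RNA and less of it per cell cannot be told apart.

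For the comparison of mH2A1.2_KO with wild type, which asks what differs in cells depleted of this macroH2A1 form, a small group of H/ACA RNAs held the highest differences. The 6 highest members were all H/ACA: SNORA28, SNORA2B, SNORA80E, SNORA67, SNORA7B and SNORA62, at 0.71 to 1.62 on the log2 scale. None of the 96 passed limma's test at an adjusted p under 0.05, where 0 of 13786 features (0.0%) did. Adjusted p-values of members ran from 0.231 to 0.999, and the lowest of any feature was 0.183. At an unadjusted p under 0.05 there were 11 members, 10 higher and 1 lower, beside 7.73% of all features (4.37% higher and 3.35% lower). The 10 include SNORA9, which passed the detection filter only through its mH2A1.2_KO arrays. The median difference was 0.03 over members and -0.01 over all features, with 53 members above 0, beside 48.0% of all features. A difference of at least 0.5 was found in 10 members higher and 1 lower, beside 3.96% and 2.69% of all features. Outside the 6 highest, 5 members differed by at least 0.5, SNORD80, SCARNA18, SNORA12 and SNORD46 higher and SNORD104 lower. Values on both mH2A1.2_KO arrays lay above both wild type arrays for 19 members and below both for 14, where 17.1% and 18.7% of all features did. With 2 arrays against 2 an exact permutation test cannot give a p below 0.333.

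**Figure D1:**
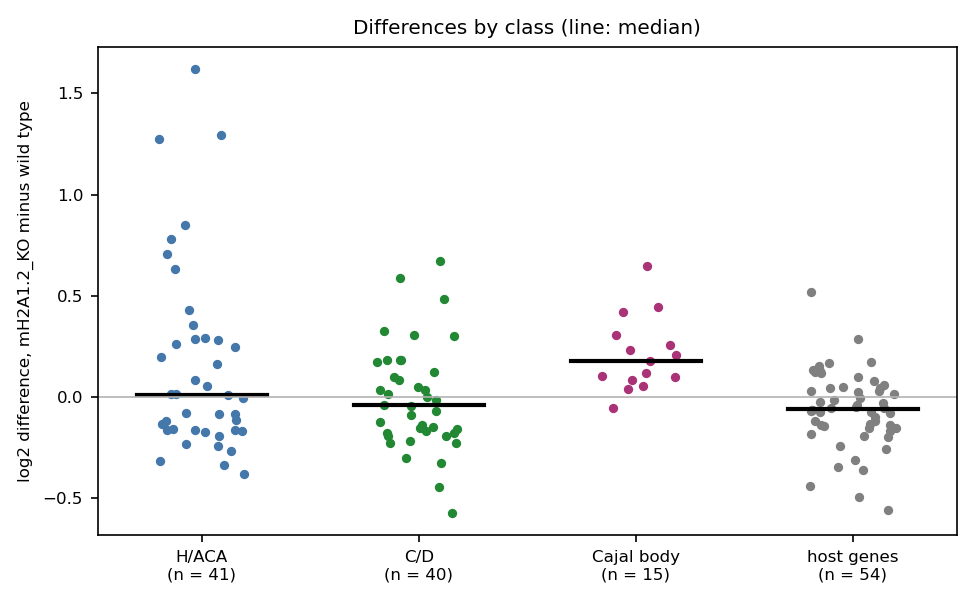
Difference in log2 value, mH2A1.2_KO minus wild type, for each of the 96 members by class, and for their tested host genes; each point is 1 gene and the bar is the median. The medians are 0.01 for H/ACA, -0.04 for C/D and 0.18 for Cajal body RNAs, and the 3 points above 1 are H/ACA members.

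SNORA28, which guides pseudouridylation of the small subunit ribosomal RNA, had the largest difference of the members. Its log2 values were 6.84 and 7.28 in the wild type pair and 8.92 and 8.44 in the mH2A1.2_KO pair. Both mH2A1.2_KO arrays were above both wild type arrays, and the gap between groups exceeded the spread within either. The difference was 1.62 ± 0.24 (SE, n = 2 per group), a fold of 3.07, with a 95% interval of 1.04 to 2.20 and an adjusted p of 0.25 in limma. It stood at rank 9 of all 13786 features by difference.

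SNORA2B, an H/ACA RNA with a related copy named SNORA2A, was the tightest of the high members. It measured 6.83 and 6.98 in the wild type pair and 8.21 and 8.18 in the mH2A1.2_KO pair, so replicates lay within 0.15 of each other and the groups did not overlap. The difference was 1.30 ± 0.16 (SE, n = 2 per group; interval 0.91 to 1.68), the lowest adjusted p of any member at 0.231 in limma.

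SNORA80E, an H/ACA RNA also known as SNORA42 and reported at high levels in lung cancers, measured 7.38 and 7.74 in wild type. In mH2A1.2_KO it measured 9.15 and 8.51, again with no overlap, and the mH2A1.2_KO arrays were further apart than the wild type arrays. The difference was 1.28 ± 0.26 (SE, n = 2 per group; interval 0.65 to 1.91; limma adjusted p = 0.36). These 3 RNAs were the members with a difference of at least 1, beside 0.58% of all features.

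The next 3 had smaller gaps, set by wild type replicate 2. SNORA67, a guide for the small subunit ribosomal RNA, measured 8.28 and 8.84 in the wild type pair and 9.45 and 9.38 in the mH2A1.2_KO pair, a difference of 0.85 ± 0.22 (limma adjusted p = 0.465). SNORA7B measured 7.72 and 8.13 against 8.86 and 8.54, a difference of 0.78 ± 0.21 (limma adjusted p = 0.469). SNORA62 measured 7.64 and 8.38 against 8.75 and 8.68, a difference of 0.71 ± 0.26 (limma adjusted p = 0.595). In each of the 3, wild type replicate 2 was the wild type array nearer to mH2A1.2_KO, and no array of one group reached the other. A symbol with a letter after its number names 1 of several related copies, and a probe may read more than 1 of them, so SNORA2B, SNORA7B and SNORA80E are uncertain in that respect.

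**Figure D2:**
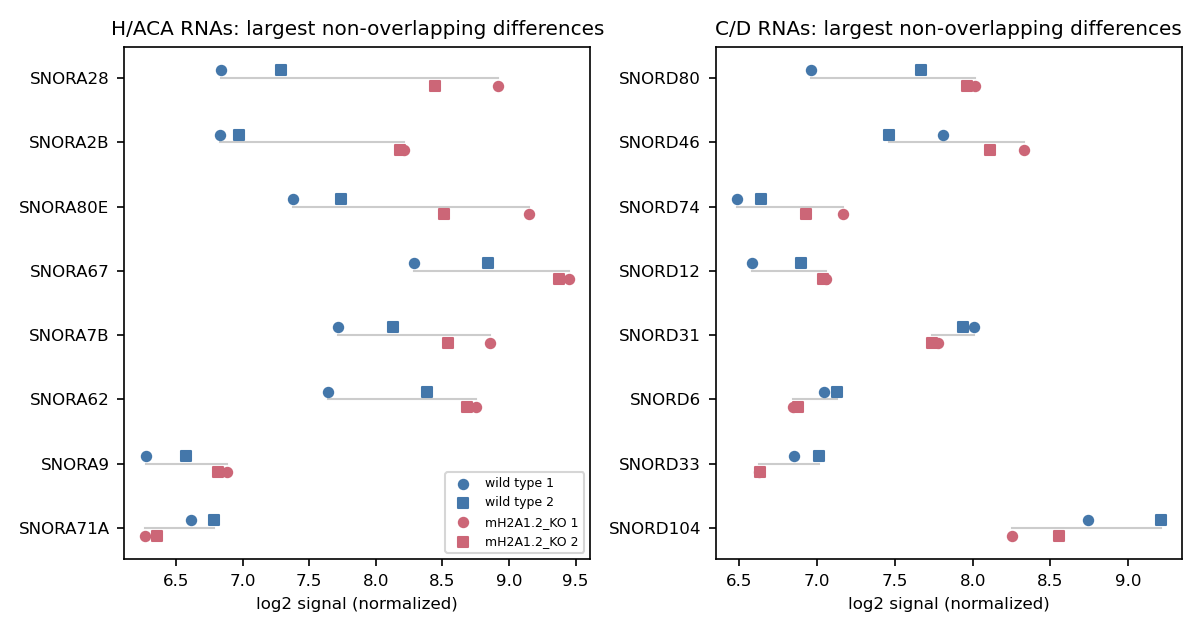
Log2 value on each array for the members named by size of difference whose arrays do not overlap; each point is 1 array, coloured by group. SNORA28, SNORA2B and SNORA80E show the widest gaps, 1.28 to 1.62 between group means, and SNORD104 lies lower in mH2A1.2_KO.

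Since the groups did not overlap in these RNAs, the difference between the 2 alike-placed arrays had to be above 0 and is no separate check. With the raw header's grouping most lay near 0. Between the alike-placed arrays the difference was 1.61 for SNORA28, 1.35 for SNORA2B, 1.14 for SNORA80E, 1.09 for SNORA67, 0.83 for SNORA7B and 1.04 for SNORA62. With the raw header's grouping it was -0.01, 0.06, -0.14, 0.24, 0.05 and 0.34 in the same order. That grouping sets replicate 1 of both labels against replicate 2 of both. With the replicate number as a block, limma called 4 members, SNORA28, SNORA2B, SNORA80E and SNORA67, all higher, beside 3.08% of all features. Without wild type replicate 1 it called 2 members, SNORA28 and SNORA2B, beside 0.413% of all features. Without wild type replicate 2 it called 7, the 4 of the block with SNORA62 and SNORD80 higher and SNORD13 lower, beside 1.13%. In these fits the lone wild type array is assumed to vary like the mH2A1.2_KO pair, which alone gives the spread. It called 0 without either mH2A1.2_KO array.

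Of the 41 H/ACA members 21 were above 0 and 20 below, with a median of 0.01 and a range of -0.38 to 1.62. Of the 35 below the 6 highest, 15 were above 0 and 20 below. Arrays did not overlap for 11 higher and 8 lower members (26.8% and 19.5%), beside 17.1% and 18.7% of all features. At an unadjusted p under 0.05 there were 7, all higher, beside 4.37% of all features higher and 3.35% lower. The seventh was SNORA9. SNORA9 measured 6.27 and 6.57 in wild type, not well above background on either array, and 6.88 and 6.82 in mH2A1.2_KO. Its measured fold of 1.32 higher is a bound (fitted difference 0.43, 95% interval 0.0005 to 0.86, limma adjusted p = 0.647). SNORA9 passed the detection filter through its mH2A1.2_KO arrays alone, so its direction is no support. The other 4 higher members whose arrays did not overlap were SNORA80A, SNORA63, SNORA21 and SNORA14B, at 0.20 to 0.29.

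The lowest H/ACA member was SNORA71A, at 6.61 and 6.78 in wild type. It was not well above background in mH2A1.2_KO, at 6.27 and 6.36, so its measured fold of 1.2 lower there is a bound. The fitted difference was -0.38 (95% interval -0.77 to 0.01, limma adjusted p = 0.668). SNORA64 followed at 7.08 and 7.59 against 7.03 and 6.97, and differed by -0.34 ± 0.21. The SNORA73 RNAs, also called U17, act in cleavage of the ribosomal RNA precursor and not only as guides. SNORA73A differed by -0.24 ± 0.19, and the SNORA73B probes by -0.17 and -0.31. These copies are close to each other in sequence, so their signals may be shared. SNORA12 and SNORA18 are named for the high mean signal of their probes. SNORA12 measured 11.86 and 10.94 in the wild type pair and 12.21 and 11.85 in the mH2A1.2_KO pair, and SNORA18 9.01 and 9.25 against 8.87 and 9.07. In both the groups overlapped, with differences of 0.63 ± 0.32 and -0.16 ± 0.18.

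C/D RNAs showed smaller differences in both directions. Of 40 members 18 were above 0 and 22 below, with a median of -0.04 and a range of -0.57 to 0.67. Arrays did not overlap for 7 higher and 6 lower members, beside 17.1% and 18.7% of all features. At an unadjusted p under 0.05 there were 3 higher and 1 lower, beside 4.37% and 3.35% of all features. Within wild type, replicate 1 gave the higher value for 7 of the 40, as it did for 7 of the 41 H/ACA members. Within mH2A1.2_KO it did so for 16 and 23.

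SNORD80, a guide for the large subunit ribosomal RNA encoded in GAS5, was the highest C/D member. It measured 6.96 and 7.67 in the wild type pair and 8.02 and 7.96 in the mH2A1.2_KO pair, a difference of 0.67 ± 0.25 (SE, n = 2 per group; limma adjusted p = 0.602). SNORD74, from the same host, measured 6.48 and 6.64 against 7.17 and 6.92, a difference of 0.48 ± 0.17 (limma adjusted p = 0.583), and was detected on 1 of the wild type arrays. Both GAS5 RNAs therefore measured higher on each mH2A1.2_KO array than on each wild type array. GAS5 itself, a growth arrest transcript with no known protein, was not among the tested features.

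SNORD46, another large subunit guide, measured 7.81 and 7.46 in the wild type pair and 8.33 and 8.11 in the mH2A1.2_KO pair, a difference of 0.59 ± 0.19 (limma adjusted p = 0.536). Its difference was 0.30 between the alike-placed arrays and -0.28 with the raw header's grouping. SNORD12 followed, at 6.58 and 6.89 against 7.06 and 7.04, and differed by 0.31 ± 0.18. SNORD36C, SNORD95 and SNORD21 also had separate arrays, each at 0.18. In these RNAs the groups were separate, by a margin smaller than that of the leading H/ACA RNAs.

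SNORD104, a large subunit guide encoded in SNHG25, was the lowest member of all. It measured 8.74 and 9.21 in the wild type pair and 8.25 and 8.56 in the mH2A1.2_KO pair, a difference of -0.57 ± 0.22 (SE, n = 2 per group; interval -1.11 to -0.04; limma adjusted p = 0.616). Both mH2A1.2_KO arrays were below both wild type arrays, yet the difference was -0.19 between the alike-placed arrays and 0.39 with the raw header's grouping. Below 0 with separate arrays were SNORD33, SNORD6, SNORD31, SNORD89 and SNORD32A, at -0.30 to -0.15. SNORD33, which with SNORD32A has been reported to mediate responses to metabolic stress in rodent cells, measured 6.85 and 7.01 in wild type. In mH2A1.2_KO it was not well above background, at 6.63 and 6.63, so its measured fold of 1.23 lower is a bound. The 95% interval of its difference, -0.68 to 0.09, includes 0.

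SNORD13 differs in kind from the other C/D members: it directs the acetylation of a cytidine in the small subunit ribosomal RNA and is transcribed from its own gene. It measured 11.15 and 9.64 in the wild type pair and 10.02 and 9.88 in the mH2A1.2_KO pair. The wild type arrays were 1.51 apart and enclosed both mH2A1.2_KO arrays, so its difference of -0.44 ± 0.46 is less than the spread between replicates. It became -1.20 without wild type replicate 2 and 0.32 without wild type replicate 1. SNORD96A and SNORD36A had a similar gap between the wild type arrays, with 7.60 and 8.96, and 7.0 and 8.05.

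With the groups used, Cajal body RNAs were set apart by the replicate number more than by the genotype label. Only in the raw header's grouping are these replicate numbers the genotype groups, and under it replicate and genotype could not be told apart. That grouping sets the MACROH2A1 values 13.02 and 11.97 against 12.91 and 11.83. Of the 15, 14 had a difference above 0, with a median of 0.18 and a range of -0.05 to 0.65. Arrays did not overlap in 1, which was higher, beside 17.1% of all features higher and 18.7% lower. This was SCARNA22, the guide RNA in an intron of the histone methyltransferase gene NSD2. It measured 6.96 and 7.01 in the wild type pair and 7.32 and 7.27 in the mH2A1.2_KO pair, a difference of 0.31 ± 0.15 (limma adjusted p = 0.74). None of the 15 had an unadjusted p under 0.05.

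In 12 of the 15 both replicate 1 arrays lay above both replicate 2 arrays, and in 2 below, where 22.8% and 24.8% of all features did. In those 12 the replicate 1 array exceeded the replicate 2 array by 0.14 to 1.19 in wild type and by 0.14 to 1.2 in mH2A1.2_KO. The H/ACA class had 3 above and 12 below, and the C/D class 2 above and 17 below. For Cajal body RNAs the median of replicate 1 minus replicate 2 was 0.43 within wild type and 0.71 within mH2A1.2_KO, and for H/ACA RNAs -0.34 and 0.04. What the arrays with the same replicate number share was not tested.

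SCARNA8, also called U92 and a guide for the U2 spliceosomal RNA, showed the gap clearly. It measured 9.47 and 8.28 in the wild type pair and 9.67 and 8.55 in the mH2A1.2_KO pair, so each replicate 1 array was more than 1 above its replicate 2 array while the genotype difference was 0.23 ± 0.49. SCARNA14 measured 9.06 and 7.97 against 9.22 and 8.02. SCARNA16, whose sequence ends in the ACA box above, measured 8.83 and 7.77 against 9.19 and 8.25. The same order of arrays held in SCARNA9, which measured 8.88 and 7.85 against 8.77 and 8.07, and in SCARNA11, which measured 8.05 and 7.17 against 8.29 and 7.10.

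The highest difference of the class was that of SCARNA18, with 8.21 and 7.77 in the wild type pair and 9.23 and 8.05 in the mH2A1.2_KO pair. Wild type replicate 1 lay above mH2A1.2_KO replicate 2, so the groups overlapped, and the difference was 0.65 ± 0.39 (limma adjusted p = 0.827). SCARNA13 measured 10.67 and 9.92 against 11.19 and 10.29, a difference of 0.44 ± 0.37. SCARNA10, also called U85, a composite RNA with both kinds of box that guides changes in the U5 spliceosomal RNA, ran the other way round: 7.90 and 8.75 in the wild type pair and 8.43 and 8.57 in the mH2A1.2_KO pair, with replicate 2 the higher array in each group. The other 6 members, SCARNA23, SCARNA20, SCARNA21, SCARNA4, SCARNA3 and SCARNA12, had differences of 0.26, 0.21, 0.12, 0.10, 0.04 and -0.05, all with overlapping arrays.

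Compared within a replicate number, mH2A1.2_KO was above wild type for 13 of the 15 Cajal body RNAs among replicate 1 arrays, with a median of 0.25, and for 12 among replicate 2 arrays, with a median of 0.18. Between the alike-placed arrays, which differ in both genotype and replicate number, the median was -0.29 and 3 of 15 were above 0. With the raw header's grouping it was -0.55.

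**Figure D3:**
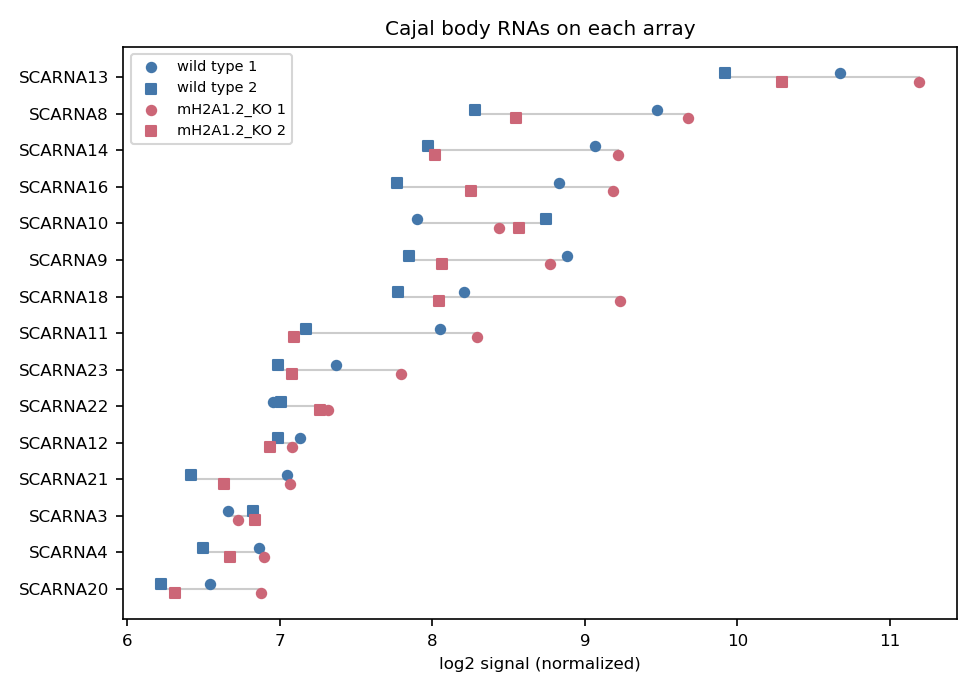
Log2 value on each array for the 15 Cajal body RNAs, each point 1 array, with colour for the group and shape for the replicate number. Replicate 1 points lie above replicate 2 points of both groups in 12 RNAs, and the colours separate fully only in SCARNA22.

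Host genes allow a check of whether a member moved together with the transcript that carries it. A gene of RefSeq other than a small RNA spans 94 of the 96 members, the exceptions being SNORD13 and SNORA50C. These are 70 distinct genes, of which 54 were tested, giving 73 pairs. The gene table used gives no strand, so a containing gene may lie on the other strand. Host genes had a median difference of -0.06 over 54, with 19 above 0 and 35 below, and 0 passed the test. At an unadjusted p under 0.05 there were 0 higher and 2 lower, beside 4.37% and 3.35% of all features.

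The 3 leading H/ACA RNAs did not share their direction with their hosts. EIF5, the host of SNORA28 and a factor in start codon recognition, measured 9.88 and 10.31 in the wild type pair and 9.60 and 9.89 in the mH2A1.2_KO pair, a difference of -0.34 ± 0.21. KANSL2, the host of SNORA2B and part of a histone acetyltransferase complex, measured 10.23 and 10.44 against 10.20 and 10.33, a difference of -0.07 ± 0.17. KHDC4, the host of SNORA80E, measured 10.58 and 10.30 against 10.21 and 10.30, a difference of -0.18 ± 0.17. The groups overlapped in EIF5 and KANSL2, and in KHDC4 the lower wild type array and the higher mH2A1.2_KO array were both at 10.30. On each array, SNORA28 minus EIF5 was -3.04 and -3.02 in the wild type pair and -0.68 and -1.45 in the mH2A1.2_KO pair, so both mH2A1.2_KO arrays lay above both wild type arrays for this quantity. EIF4A1, the helicase of the cap-binding complex and host of SNORA67, differed by 0.04.

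At least 2 hosts of Cajal body RNAs ran against the replicate order of the RNAs they carry. TIPIN, a replication fork protein gene that spans SCARNA14, read 8.05 and 9.07 in the wild type pair and 8.28 and 8.58 in the mH2A1.2_KO pair, so replicate 2 was the higher array in each group, while SCARNA14 had replicate 1 higher. POLA1, the DNA polymerase gene that spans SCARNA23, read 7.75 and 8.57 against 8.06 and 8.35, again with replicate 2 higher and SCARNA23 the reverse. By genotype, TMEM167A, CHD4 and NSD2 differed by 0.29, 0.17 and 0.15, and POLA1, NCAPD2, CHD3 and CEP295 by 0.02 to 0.05. TIPIN, COP1, KHDC4 and PHB2 differed by -0.13, -0.15, -0.18 and -0.19. Of the hosts of the other named members, SNHG15 (SNORA9) and CWF19L1 (SNORA12) differed by 0.06 and 0.10, and SNHG17 (SNORA71A) and ZFAS1 (SNORD12) by -0.14 each.

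Members of 1 host could also differ from each other. KHDC4 holds SNORA80E, at 1.28, and SCARNA4, at 0.10. RPSA, the gene of a small subunit ribosomal protein, holds SNORA62 at 0.71 and SNORA6 at 0.29. Other hosts had members close together: the 4 RNAs of RPL13A, SNORD32A, SNORD33, SNORD34 and SNORD35A, lay between -0.30 and -0.15, beside -0.31 for RPL13A itself. The 2 RNAs of RPS2 were at -0.34 and -0.31, beside -0.10 for the host. The 4 members in SNHG1 lay between -0.22 and 0.05 and those in TAF1D, a subunit of the factor that starts ribosomal RNA transcription, between -0.23 and 0.08.

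Over the 73 pairs, both genes were higher in 16 and both lower in 28. The member was higher with a lower host in 24, and lower with a higher host in 5. The median of the member's difference minus the host's was 0.14. Across these pairs the Pearson correlation of the differences was 0.12 and the Spearman correlation 0.27. Pairs share arrays and some share a host, so these are descriptions.

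**Figure D4:**
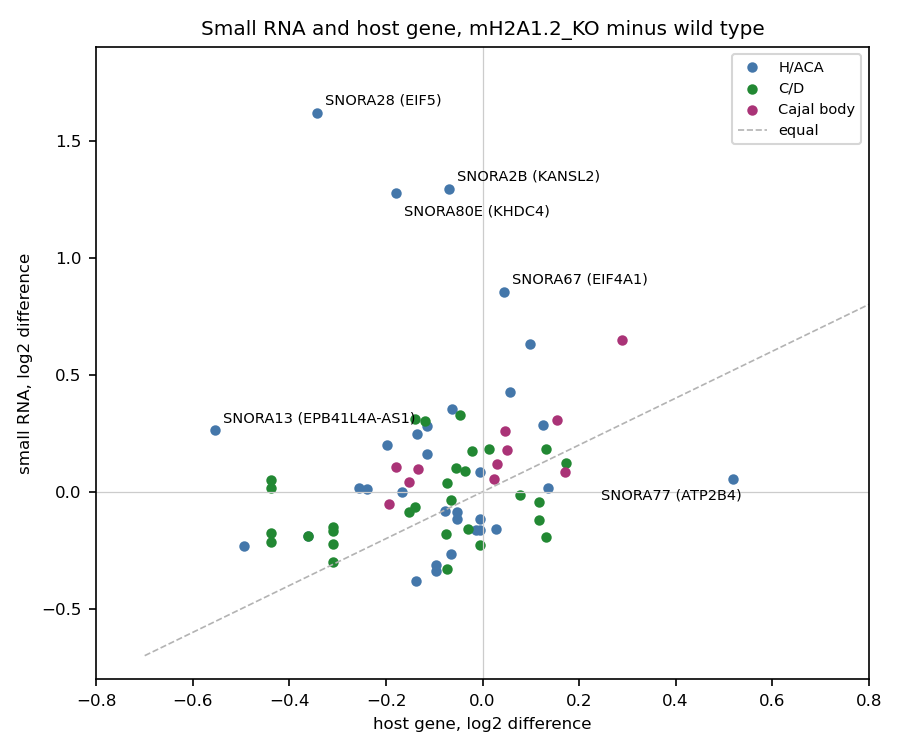
Difference in log2 value of each member (vertical axis) against that of its host gene (horizontal axis), mH2A1.2_KO minus wild type, for 73 pairs coloured by class. SNORA28, SNORA2B and SNORA80E lie above 1 while their hosts lie between -0.34 and -0.07.

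Non-coding hosts were lower than coding ones by their median. The 8 tested had a median of -0.25, with 7 below 0, against a median of -0.05 over 46 protein-coding hosts. Arrays of 5 of the 8 were lower without overlap, beside 18.7% of all features. EPB41L4A-AS1, the host of SNORA13, measured 10.83 and 10.55 in the wild type pair and 10.06 and 10.21 in the mH2A1.2_KO pair, a difference of -0.56 ± 0.18 (limma adjusted p = 0.515). SNHG8, the host of SNORA24, measured 9.59 and 9.77 against 9.06 and 9.31, a difference of -0.49 ± 0.18 (limma adjusted p = 0.583). SNHG1 and SNHG12 differed by -0.44 and -0.36. The RNAs they carry did not have the same direction throughout: SNORA13 was at 0.26 and SNORA24 at -0.23. With the raw header's grouping the hosts SNHG8, SNHG1 and SNHG12 turned higher, and EPB41L4A-AS1 stayed lower by less. Over the 21 members in non-coding hosts the median was 0.02, beside 0.04 over the 73 in protein-coding hosts and -0.08 over the 29 in ribosomal protein hosts.

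Many host genes begin transcription with a run of pyrimidines, the feature of the 5′ terminal oligopyrimidine class of messages whose translation responds to growth signals. The start regions of some hosts of the leading members and some hosts with low members are shown as examples of this feature. Each line gives 25 bases before and 15 from the annotated start, 5′ to 3′, from RefSeq on build GRCh38.p14, with a pyrimidine run that begins at the start in capitals.
EIF5: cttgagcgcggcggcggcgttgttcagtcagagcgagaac
KANSL2: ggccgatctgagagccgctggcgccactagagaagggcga
KHDC4: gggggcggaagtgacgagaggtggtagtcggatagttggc
RPSA: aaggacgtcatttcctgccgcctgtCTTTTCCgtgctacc
RPL13A: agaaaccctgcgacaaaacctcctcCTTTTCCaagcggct
TAF1D: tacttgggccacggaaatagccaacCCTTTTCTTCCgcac
SNHG12: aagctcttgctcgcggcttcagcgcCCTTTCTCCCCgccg
These are chr14:103334212-103334251 on the plus strand for EIF5 (1 of its annotated starts), chr12:48682224-48682263 on the minus strand for KANSL2, chr1:155934399-155934438 on the minus strand for KHDC4, chr3:39406695-39406734 on the plus strand for RPSA, chr19:49487583-49487622 on the plus strand for RPL13A, chr11:93741481-93741520 on the minus strand for TAF1D and chr1:28581859-28581898 on the minus strand for SNHG12. The hosts of the 3 highest members have no such run at these starts, whereas RPSA, RPL13A, TAF1D and SNHG12 have runs of 7, 7, 11 and 11 bases. RPSA, with a run, spans higher members, SNORA62 at 0.71 and SNORA6 at 0.29. Some hosts of low members lack a run. SNHG17, NOP56 and SNHG3, which span SNORA71A (-0.38), SNORD110 (-0.33) and SNORA73A (-0.24), have runs of 0 bases. A start with C followed by at least 4 pyrimidines on the gene's strand was found in 20 of 59 hosts in the promoter table (33.9%), beside 1404 of 27305 genes (5.14%). The median difference was -0.08 over 34 members in such hosts, with 13 above 0, and 0.09 over 47 members in hosts without one, with 33 above 0. Some of these members share a host, so they are not independent. This split was chosen after values were seen and was not tested.

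The proteins that bind and assemble these RNAs showed small differences. Of 38 tested genes of the core particles, assembly, Cajal bodies and processing, 14 were above 0 and 24 below, with a median of -0.07. Of these, 0 passed the test and 2 had an unadjusted p under 0.05, beside 7.73% of all features. The 4 core proteins of C/D particles had a median of -0.06 and the 4 of H/ACA particles -0.14. ZNHIT6, an assembly factor of C/D particles, measured 8.48 and 8.78 in the wild type pair and 9.21 and 9.28 in the mH2A1.2_KO pair, a difference of 0.62 ± 0.17 (limma adjusted p = 0.481). NAF1, an assembly factor of H/ACA particles, measured 6.86 and 6.93 against 6.39 and 6.57 and was not well above background in mH2A1.2_KO (fitted difference -0.41, limma adjusted p = 0.623). RUVBL1, an ATPase of the assembly complex, differed by -0.40 ± 0.17. COIL, which codes for the Cajal body protein coilin, differed by 0.33 ± 0.16, SNU13 by 0.17 ± 0.18 and TRMT112 by -0.25 ± 0.15.

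The U3 copies lie outside the set but are C/D RNAs that act in cleavage of the ribosomal RNA precursor. SNORD3A, SNORD3C and SNORD3D differed by 1.07, 1.16 and 1.27, above every C/D member, each with separate arrays (lowest limma adjusted p = 0.319). Between the alike-placed arrays they differed by 0.43, 0.65 and 0.87, and with the raw header's grouping by -0.64, -0.52 and -0.40. They are near-identical copies and count as 1 signal. Over 20 other small non-coding RNAs the median was -0.01. Their arrays did not overlap for 2 higher and 4 lower, beside 17.1% and 18.7% of all features. The 2 lowest were the vault RNA VTRNA1-1 at -0.80 and the spliceosomal RNU4-1 at -0.66.

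For most members the arrays bound the difference, without showing that it is 0. The 95% interval lay within 1 of 0 on the log2 scale for 75 of the 96 and reached 1 in either direction for 21. The mean level of 59 members was under 7.5, where the lowest detected value of any probe was 6.33, so many were measured near background. On background-corrected raw signals the differences of SNORA9, SNORD74 and SNORD33 were larger in size than reported, at 0.96, 0.99 and -0.66.

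**Figure D5:**
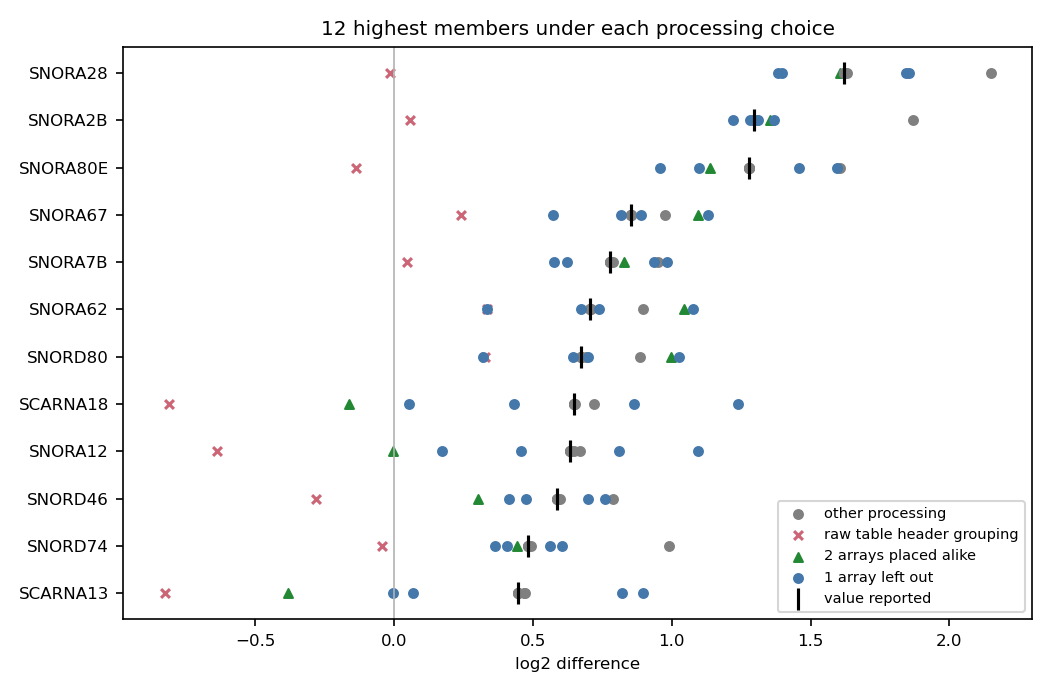
Difference in log2 value, mH2A1.2_KO minus wild type, of the 12 highest members; the black bar is the value reported and each point is 1 alternative setting. SNORA28 runs from -0.01 with the raw header's grouping to 2.15 on background-corrected raw signals.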

How the data were processed

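Column-purified total RNA was made into biotinylated cRNA for Illumina bead arrays, per the labels' protocols. GenomeStudio is named in the submitters' processing notes. The authors deposited a raw intensity and a detection p-value per probe for 47230 probes, and normalized values on a log2 scale whose normalization those sources do not state. These 43893 deposited log2 values per array were quantile-normalized across the 4 arrays.

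Probes detected (p-value below 0.01) on 2 or more arrays were kept (16950), and the probe with the highest mean stood for a gene. The 13786 features were fitted by lmFit and eBayes of limma 3.58.1 (R 4.3.3) with 2 residual and 4.1 prior degrees of freedom. Two-sided p-values were adjusted by the Benjamini-Hochberg method over these features and called below 0.05. Errors are moderated standard errors. The fit was tested on simulated data. Where neither array of a group detected an RNA, its fold is a bound, set against the lowest detected signal of each array of that group or its own signal if higher. The bound leaves out the spread between arrays. Such an RNA passed the detection filter through the other group alone, so its direction was not free. Precision is limited by the number of arrays, which carry no read depth.

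Members and lists were chosen with earlier results of these data known. Named are every Cajal body RNA, the 8 H/ACA and 8 C/D RNAs with the largest difference among those whose arrays do not overlap, the 2 of each class with the highest mean, their tested hosts, and the 3 highest and 3 lowest genes of the particle proteins. Further members named to complete a count or a host's set were chosen after their values were seen. Hosts are genes of the RefSeq table that contain the member on either strand, since the table gives none. Alternatives were background correction from raw signals (neqc), other groupings of the arrays, other filters, the mean over probes, a replicate block and leaving out each array.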

Additional observations from a re-analysis of the deposited data

How the results depend on the processing

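With 2 arrays per group, limma called 0 members as reported, and 59 of the 96 had a mean level under 7.5, near background. The files do not state which table names wild type replicate 2 and mH2A1.2_KO replicate 1 correctly. The sample titles end in position letters, E and G for the wild type pair and F and H for the mH2A1.2_KO pair. Matched to the normalized columns, the raw columns run in the order E, F, G, H, while the raw header pairs them in sample order. MACROH2A1 differed by -1.07 with the groups used and by -0.12 with the raw header's. Of the genes named by rule, 0 changed direction with no detection filter, with detection required on all 4 arrays, or without the further quantile step. The C/D median became 0.0016 with detection on all 4 arrays, and without the quantile step the median of all features became 0.00046 and 1 of 96 members turned.

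The replicate numbers correlated across groups, at 0.57 for replicate 1 minus replicate 2 over all features, but the labels do not say that a number marks a shared batch, and there are only 2 pairs. With the replicate block, 4 members were called, 19 had an unadjusted p under 0.05 (17.4% of all features) beside 11 without it (7.73%), and MACROH2A1 passed the test at the same difference of -1.07 (adjusted p = 0.00504).

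With the raw header's grouping, the median was 0.21 over C/D members, -0.55 over Cajal body members, 0.084 over hosts and 0.077 over particle and assembly genes. At an unadjusted p under 0.05 there were 23 members, beside 14.0% of all features. Arrays did not overlap for 31 higher and 17 lower members, beside 24.8% and 22.8% of all features. The direction turned for 56 of the 96 members, with the cause not tested. Among the H/ACA and C/D RNAs named by rule the differences that turned became SNORA28 -0.014, SNORA80E -0.14, SNORA71A 0.13, SNORA12 -0.64, SNORA18 0.23, SNORD46 -0.28, SNORD104 0.39, SNORD74 -0.042, SNORD33 0.084 and SNORD6 0.056. Among Cajal body RNAs they became SCARNA18 -0.81, SCARNA13 -0.83, SCARNA16 -1.0, SCARNA23 -0.55, SCARNA8 -1.16, SCARNA20 -0.44, SCARNA21 -0.53, SCARNA4 -0.30, SCARNA14 -1.15, SCARNA11 -1.04 and SCARNA9 -0.87. Among hosts and particle genes they became EIF5 0.36, KANSL2 0.16, SNHG17 0.60, TAF1D 0.12, SNHG1 0.33, TIPIN 0.66, COP1 0.046, PHB2 0.36, NAF1 0.12 and SNU13 -0.061.

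Between the alike-placed arrays the median was 0.18 over all members, 0.21 over H/ACA, 0.23 over C/D and -0.29 over Cajal body members, 0.060 over hosts and 0.029 over particle and assembly genes. This setting has 1 array per group and gives no p and no overlap count. The direction turned for 35 of the 96 members. Among genes named by rule these were SNORA12 -0.0044, SNORA18 0.062, SCARNA18 -0.16, SCARNA13 -0.38, SCARNA16 -0.58, SCARNA23 -0.29, SCARNA8 -0.92, SCARNA20 -0.23, SCARNA21 -0.41, SCARNA4 -0.19, SCARNA14 -1.05, SCARNA11 -0.95, SCARNA9 -0.82, EIF5 0.016, KANSL2 0.095, SNHG17 0.46, TAF1D 0.12, TIPIN 0.53 and PHB2 0.17. Among other members printed, SNORA24 became 0.29, SNORD34 0.081, SNORD36A 0.56, SNORD96A 0.69, SNORD110 0.14 and SNORA50C 0.23.

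On background-corrected raw signals 9 of the 96 members turned and the H/ACA median became -0.047. Among genes named by rule the differences that turned were SCARNA3 -0.030, SCARNA12 0.14 and TAF1D 0.052, and with the mean over probes EIF4A1 -0.016. That mean also left MACROH2A1 at -0.49.

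Leaving out each array in turn, the median over members ran from -0.10 to 0.11, over H/ACA from -0.13 to 0.14, over C/D from -0.18 to 0.17, over Cajal body RNAs from -0.078 to 0.49, over hosts from -0.093 to -0.0072, over particle and assembly genes from -0.10 to 0.025. Members called ran from 0 to 7, members at an unadjusted p under 0.05 from 4 to 24, and non-overlapping members from 27 to 47 higher and from 19 to 49 lower, where a single array in a group makes overlap rarer. MACROH2A1 ran from -1.14 to -0.99, and passed the test without wild type replicate 2. The share of all features at an unadjusted p under 0.05 also changed with the array left out. The range of the member count at that threshold therefore cannot be read as particular to the members. Between 8 and 28 of the 96 members turned for each array left out. Other members printed that turned include SNORA24, at 0.14 without wild type replicate 2, and SNORA13, at -0.0043 without wild type replicate 1. Among genes named by rule the direction turned in CEP295 (-0.045 to 0.093), CHD3 (-0.081 to 0.14), CWF19L1 (-0.040 to 0.24), EIF4A1 (-0.11 to 0.20), KANSL2 (-0.17 to 0.033), NCAPD2 (-0.056 to 0.16), PHB2 (-0.44 to 0.050), POLA1 (-0.37 to 0.46), SCARNA10 (-0.24 to 0.60), SCARNA11 (-0.51 to 0.68), SCARNA12 (-0.12 to 0.019), SCARNA13 (-0.0055 to 0.90), SCARNA14 (-0.50 to 0.70), SCARNA16 (-0.11 to 0.95), SCARNA20 (-0.072 to 0.49), SCARNA21 (-0.20 to 0.43), SCARNA23 (-0.098 to 0.62), SCARNA3 (-0.041 to 0.12), SCARNA4 (-0.078 to 0.29), SCARNA8 (-0.36 to 0.83), SCARNA9 (-0.46 to 0.57), SNHG15 (-0.29 to 0.40), SNHG17 (-0.58 to 0.30), SNORD13 (-1.20 to 0.32), TAF1D (-0.12 to 0.11), TIPIN (-0.64 to 0.38).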
